A study of Saccharomyces cerevisiae with 6 samples.

Results

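The genes described here are 10 genes of budding yeast that encode enzymes of glycolysis. They comprise the hexokinase gene HXK2, the phosphofructokinase genes PFK1 and PFK2, the glyceraldehyde-3-phosphate dehydrogenase genes TDH1, TDH2 and TDH3, the phosphoglycerate kinase gene PGK1, the enolase genes ENO1 and ENO2, and the pyruvate kinase gene CDC19. They were chosen by name, as 10 of the 7126 genes that were counted, and all 10 passed the filter on low counts on both strands. Total RNA was sequenced with strand information from 6 libraries of Saccharomyces cerevisiae, 2 each of spt6-7SA, ck2ts and WT. The design addresses which transcripts depend on casein kinase 2 and on the sites in the histone chaperone Spt6 that this kinase can phosphorylate.

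All strains were of mating type a, isogenic to S288C, with leu2D1, lys2-128d and a deleted BAR1 gene, and every culture was taken to an OD600 of 0.5 in YPD medium at 30 °C before 2 h at 39 °C. The control strain was thus also heat treated, and no library was made before the shift. The spt6-7SA strain carried his3D200, ura3Δ0, bar1D::KanMX6, a tagged IWS1 gene (IWS1-13MYC::HIS3) and spt6D::kanMX6, and its only SPT6 gene was FLAG-spt6 7S-A on the plasmid pcc11 (CEN, URA3). The ck2ts strain carried cka1Δ0::KanMX6 and cka2D225N::NAT, which alter both catalytic subunits of casein kinase 2. Both ck2ts and WT carried bar1D::NAT and, at ura3-52, a URA3-marked construct of HHF1 and FLAG-HHT1, genes of histones H4 and H3, around the PGAL1/10 promoter. The spt6-7SA strain lacked this construct. In any comparison with spt6-7SA the SPT6 allele cannot be told apart from these marker and construct differences. Since no label states whether the 2 libraries of a strain came from different cultures, the spread behind the p-values may be technical. The comparisons of both mutants with WT share the same WT libraries.

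Glycolysis splits glucose into pyruvate, and growing yeast ferments the pyruvate to ethanol. Hexokinase and phosphofructokinase spend ATP in the upper part of the pathway, and phosphoglycerate kinase and pyruvate kinase regain it in the lower part. Several steps are served by duplicated genes whose products catalyse the same reaction but whose expression differs: TDH3 and ENO2 are known as the main forms on glucose, whereas TDH1 and ENO1 are known for expression under stress, slow growth or carbon sources other than glucose. HXK2, the main hexokinase on glucose, also acts in glucose repression, by which glucose silences genes for the use of other carbon sources.

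Sense reads in annotated exons numbered 56307173 to 83375420 per library and antisense reads 2799589 to 3876104. CKA1, deleted in ck2ts, had sense counts of 202 and 100 in ck2ts and of 4970 and 3504 in WT. CKA2, mutated in ck2ts, had 4485 and 3172 there and 9201 and 6249 in WT. SPT6 gave 33939 and 28833 sense reads in the spt6-7SA libraries, against 31016 and 20046 in WT, from a count that does not separate the plasmid allele from the chromosomal gene. STE2, the receptor gene of a cells, gave 5683 to 23509 sense reads in the 6 libraries, and the alpha-cell genes gave 1406 to 5215 (SAG1), 822 to 1721 (STE3), 61 to 307 (MF(ALPHA)1) and 18 to 237 (MF(ALPHA)2). All 4 alpha-cell genes passed the test as higher than in WT in both mutants, where 25.9% of all genes were called higher in spt6-7SA and 32.1% in ck2ts. Of 5 a-cell genes, 3 were higher in spt6-7SA than in WT (MFA1, STE2 and STE6). In ck2ts 4 of them were lower (STE2, MFA2, MFA1 and STE6) and ASG7 was higher. The part of this in the results on the glycolytic genes was not tested.

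Because duplicated genes share sequence, the stretches that set their counts are shown first. The coding sequences of TDH2 and TDH3 were 95.8% identical, those of TDH1 and TDH2 90.2% and those of TDH1 and TDH3 88.9%, and those of ENO1 and ENO2 were 94.8% identical. The longest run common to all 3 TDH genes spans bases 436 to 527 of each coding sequence, counted from the A of the start codon. A read that lies inside it cannot be assigned to 1 of the genes. In TDH1 it is at chrX:338706-338797 (R64, plus strand), and no base is in capitals because none differs:
TDH1, TDH2 and TDH3, bases 436 to 527: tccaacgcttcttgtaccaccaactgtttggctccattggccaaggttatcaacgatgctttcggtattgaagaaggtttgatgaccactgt

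The last 100 bases of the coding sequences (bases 900 to 999) show the opposite case for TDH1, because a 50-base read from there matches TDH1 alone. Capitals mark the bases that differ from TDH3. They lie at chrX:339170-339269 (plus strand) for TDH1, chrX:453683-453782 (minus strand) for TDH2 and chrVII:882812-882911 (minus strand) for TDH3, all in R64:
TDH1: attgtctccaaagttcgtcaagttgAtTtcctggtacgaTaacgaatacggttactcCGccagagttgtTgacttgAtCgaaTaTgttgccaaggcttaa
TDH2: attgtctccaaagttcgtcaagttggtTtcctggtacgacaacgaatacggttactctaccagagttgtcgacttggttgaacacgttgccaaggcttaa
TDH3: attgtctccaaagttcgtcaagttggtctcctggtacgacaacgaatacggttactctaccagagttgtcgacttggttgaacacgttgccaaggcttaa

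TDH1 had 10 bases in this stretch that differ from TDH3, and TDH2 had 1. Of the 51 windows of 50 bases in it, TDH1 shared 0 with either copy and TDH2 shared 23 with TDH3. Over the whole coding sequence, 15.7% of the windows of TDH1, 31.3% of those of TDH2 and 24.4% of those of TDH3 had another exact match in the genome. ENO1 and ENO2 were alike in this. They shared 23.6% of their windows, all 51 in the first 100 bases and 0 in the last 100 (bases 1215 to 1314), where 8 bases differ, in capitals here. The stretches lie at chrVII:1002141-1002240 for ENO1 and chrVIII:452541-452640 for ENO2 (R64, plus strands):
ENO1: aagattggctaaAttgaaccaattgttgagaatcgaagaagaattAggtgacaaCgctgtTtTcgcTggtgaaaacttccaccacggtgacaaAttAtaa
ENO2: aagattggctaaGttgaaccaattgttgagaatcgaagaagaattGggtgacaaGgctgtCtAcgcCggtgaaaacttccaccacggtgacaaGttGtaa

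None of the windows of PGK1, CDC19, PFK1, PFK2 or HXK2 had a second exact match. How the authors counted reads with several matches was read from genes of identical sequence. Over 28 pairs of single-exon genes with the same sequence of at least 300 bases, the sense counts of both copies differed by at most 1% in 164 of 166 library values and were equal in 113, among values with at least 200 reads over both copies. Of 94 values with fewer reads but at least 1, 87 were within 1%, and 5 of the others came from 1 pair with 0 to 5 reads. By these counts, reads with several matches were counted at each copy rather than divided at random, and a read from a shared TDH or ENO stretch would raise the count of each copy. For this reason the deposited count of the 3' part of each gene is set beside the whole-gene count for these genes. The files and labels used here do not state how far that part reaches.

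Levels are sense reads per 1000000 after scaling of the libraries by TMM (CPM), divided by exon length in kilobases where genes are compared. They are relative to the RNA of the library, and in bulk RNA less transcript per cell and fewer cells that express a gene cannot be told apart. In WT the 10 genes spanned 361 to 13636 CPM per kb on average by whole-gene counts. A read from a stretch shared by TDH or ENO copies would count at each copy, which limits their levels and ranks. TDH3 ranked 3 of 6007 protein-coding genes, CDC19 9, TDH2 10, ENO2 12 and PGK1 13. TDH1 ranked 56 and ENO1 103, and the 3 genes of the upper pathway ranked 347 (PFK2), 352 (HXK2) and 372 (PFK1). The last 3 did not differ beyond the spread between libraries in WT, where their values lay between 345 and 400 CPM per kb, and neither did CDC19 and TDH2 or ENO2 and PGK1. Together the 10 genes took 4.99% and 4.93% of all sense reads in spt6-7SA, 5.85% and 6.63% in ck2ts, and 4.02% and 4.71% in WT. The share was thus higher in each mutant library than in each WT library.

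**Figure D1:**
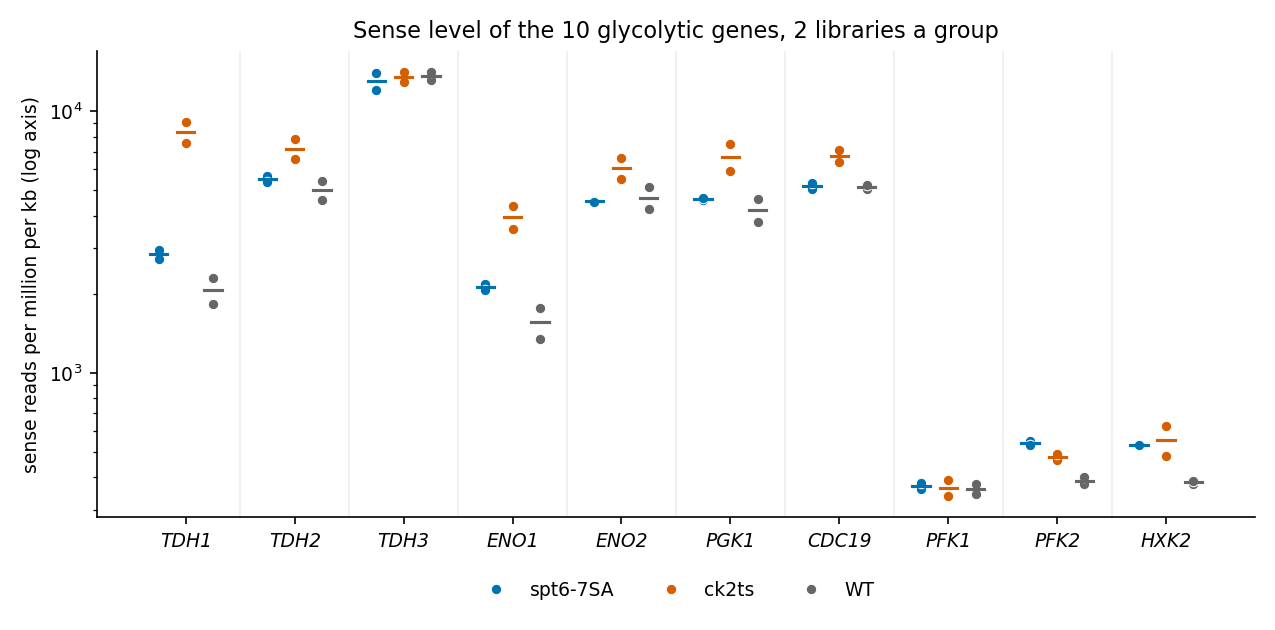
Sense level of each gene in CPM per kb on a log axis, with 1 point per library and a bar at the mean of the 2 libraries of spt6-7SA (blue), ck2ts (orange) and WT (grey). TDH1 and ENO1 stand apart in ck2ts, at 7599 and 9092 and at 3562 and 4360 CPM per kb, whereas TDH3 and PFK1 overlap in all 3 groups.

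In ck2ts, 6 of the 10 genes rose against WT and 0 fell. Over all 6776 genes tested, 64.5% were called, 32.1% as higher. The genes that rose were TDH1 (4.04-fold), ENO1 (2.53-fold), PGK1 (1.60-fold), HXK2 (1.45-fold), TDH2 (1.44-fold) and CDC19 (1.31-fold). The median log2 fold change of the 10 genes was 0.46, against 0.02 over all genes tested. In spt6-7SA, 2 of the 10 rose against WT, PFK2 (1.39-fold) and HXK2 (1.39-fold), and 0 fell, where 50.6% of all genes were called, 25.9% as higher. The median of the 10 was 0.14, against 0.01 over all genes. In spt6-7SA against ck2ts, 3 of the 10 were lower, TDH1, ENO1 and PGK1, and 0 higher, where 52.2% of all genes were called, 25.1% as lower and 27.2% as higher. Without the first WT library the number of rises in ck2ts was 2 of 10, TDH1 and ENO1, which passed in each of the 4 fits that left out a library, and without the second ck2ts library it was 3. Of the rises in spt6-7SA, HXK2 passed in 0 and PFK2 in 1 of the 4 such fits. Without the first ck2ts library the number of genes lower in spt6-7SA than in ck2ts was 6, and in the other 3 such fits it was 2, TDH1 and ENO1.

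**Figure D2:**
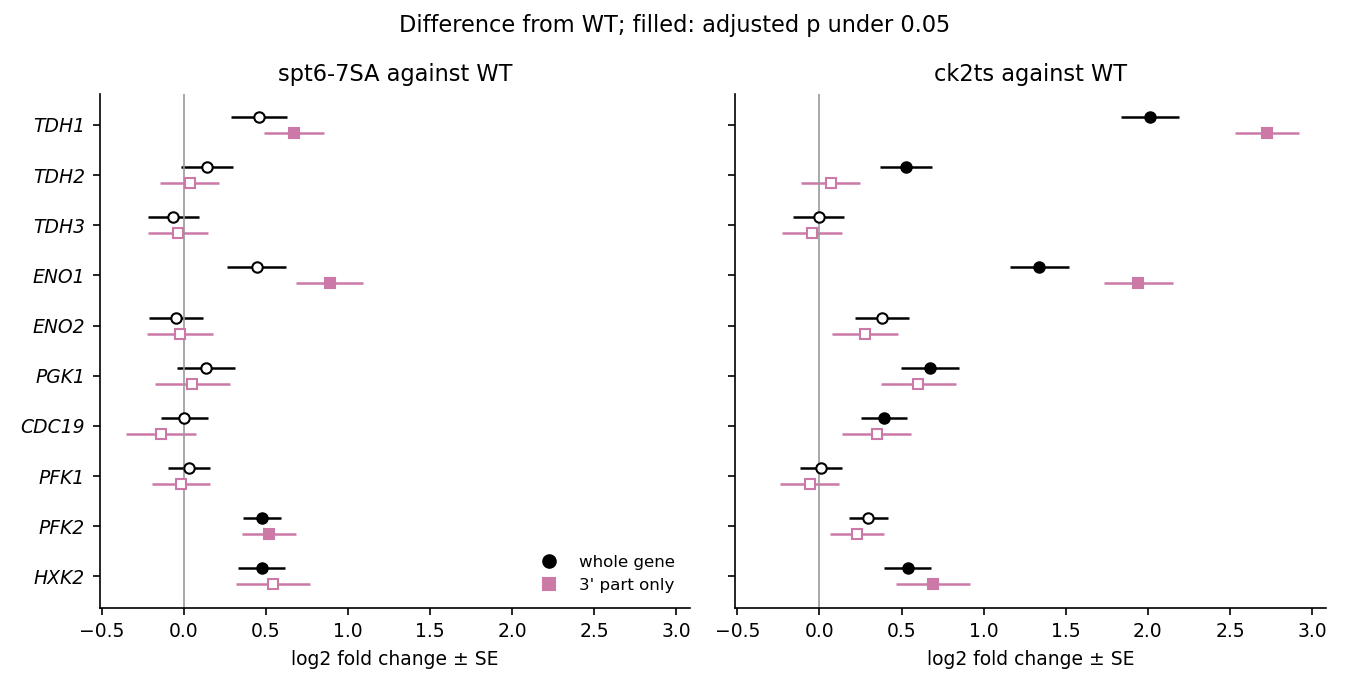
Log2 fold change against WT with its standard error for spt6-7SA (left) and ck2ts (right), from whole-gene counts (black circles) and from the 3' part alone (pink squares), filled where the adjusted p was under 0.05. From the 3' part TDH1 differed by 2.73 and ENO1 by 1.94 in ck2ts, while TDH2 lay at 0.07, against 0.53 from the whole gene.

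The pathway opens with the phosphorylation of glucose by hexokinase. HXK2 (YGL253W, chrVII:23935-25395, R64, plus strand, 1 exon) had 531 and 530 CPM per kb in spt6-7SA, 481 and 627 in ck2ts, and 377 and 386 in WT. Every mutant library lay above both WT libraries, and the ck2ts libraries lay farther apart than those of the other groups. The log2 fold change was 0.47 (SE 0.14, adjusted p = 0.0281) in spt6-7SA against WT and 0.54 (SE 0.14, adjusted p = 0.0127, but 0.0636 without the first WT library) in ck2ts against WT, by edgeR's quasi-likelihood test with Benjamini-Hochberg adjustment. Against ck2ts, spt6-7SA had a log2 fold change of -0.06 in HXK2 (adjusted p = 0.736).

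The other genes of this step, HXK1 (hexokinase) and GLK1 (glucokinase), had larger fold changes than HXK2. GLK1 had 352 and 388 CPM per kb in spt6-7SA, 956 and 1166 in ck2ts, and 109 and 161 in WT. It rose 2.74-fold in spt6-7SA (adjusted p = 0.00143) and 7.86-fold in ck2ts (adjusted p = 2.92e-05). HXK1 rose 1.90-fold in spt6-7SA (adjusted p = 0.0023) and 5.26-fold in ck2ts (adjusted p = 2.05e-05). Both groups of mutant libraries lay above the WT libraries for both genes.

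HXK2 thus held a smaller share of the reads of the 3 genes per kb in the mutants although its own level was higher. The share of HXK2 was 54.4% and 53.1% in spt6-7SA, 28.9% and 30.6% in ck2ts, and 71.8% and 64.4% in WT. GLK1 took 57.4% and 56.9% in ck2ts, against 20.7% and 26.9% in WT. The groups did not overlap, and the exact two-sided permutation test over libraries gave p = 0.3333 for HXK2 in each mutant, the smallest that 2 libraries against 2 allow. By the 3' part alone the mean HXK2 share was 71.0% in spt6-7SA, 50.5% in ck2ts and 79.9% in WT. By the 5' part alone it was 31.9%, 14.3% and 47.8%, so the size of the share depended on the reads counted. By whole-gene counts the summed level of the 3 genes was 977 and 999 CPM per kb in spt6-7SA, 1664 and 2050 in ck2ts, and 525 and 600 in WT. In ck2ts most of the added sum came from GLK1, whose mean was 1061 CPM per kb there and 135 in WT.

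Phosphofructokinase commits the sugar to glycolysis and is built from the products of PFK1 (alpha subunit) and PFK2 (beta subunit). PFK1 (YGR240C, chrVII:970771-973734, minus strand) had 360 and 379 CPM per kb in spt6-7SA, 338 and 388 in ck2ts, and 345 and 377 in WT. The 3 groups overlapped, and no comparison passed the test (adjusted p = 0.844 in spt6-7SA and 0.96 in ck2ts, both against WT). PFK2 (YMR205C, chrXIII:671887-674766, minus strand) had 548 and 532 CPM per kb in spt6-7SA, 463 and 490 in ck2ts, and 376 and 400 in WT. All mutant libraries of PFK2 lay above both WT libraries. PFK2 rose in spt6-7SA by a log2 fold change of 0.48 (SE 0.12, adjusted p = 0.013), and in ck2ts its log2 fold change of 0.30 (SE 0.12) did not pass (adjusted p = 0.0583). PFK2 made up 60.4% and 58.4% of the phosphofructokinase reads per kb in spt6-7SA, 57.8% and 55.8% in ck2ts, and 52.2% and 51.5% in WT. The share was higher in every mutant library than in both WT libraries (exact permutation p = 0.3333, the smallest possible). By the 3' part alone the mean PFK2 share was 49.8% in spt6-7SA, 45.7% in ck2ts and 40.6% in WT, so which subunit gene had more reads depended on the reads counted.

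Glyceraldehyde-3-phosphate dehydrogenase, the enzyme that makes the first energy-rich intermediate of the lower pathway, showed the widest difference between copies. TDH1 (YJL052W, chrX:338271-339269, plus strand) had 2955 and 2722 CPM per kb in spt6-7SA, 7599 and 9092 in ck2ts, and 1830 and 2306 in WT. TDH2 (YJR009C, chrX:453683-454681, minus strand) had 5683 and 5383 in spt6-7SA, 6578 and 7857 in ck2ts, and 4603 and 5411 in WT. TDH3 (YGR192C, chrVII:882812-883810, minus strand) had 14038 and 12073 in spt6-7SA, 13013 and 14160 in ck2ts, and 13162 and 14110 in WT. Of these, TDH1 in ck2ts lay farthest from its WT values, and TDH3 overlapped between all groups.

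By whole-gene counts TDH1 rose in ck2ts by a log2 fold change of 2.01 (SE 0.18, adjusted p = 5.73e-05), which ranked 288 of 6776 genes by size of rise. TDH2 rose by 0.53 (SE 0.16, adjusted p = 0.0209), a call lost without the first WT library (adjusted p = 0.136) or the second ck2ts library, and TDH3 had a log2 fold change of -0.01 (SE 0.15, adjusted p = 0.98). In spt6-7SA the log2 fold changes of TDH1, TDH2 and TDH3 were 0.46 (SE 0.17), 0.14 (SE 0.16) and -0.06 (SE 0.15), and none passed (adjusted p = 0.057, 0.478 and 0.758). Between the mutants TDH1 was 2.94-fold lower in spt6-7SA than in ck2ts (adjusted p = 0.000354).

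The counts of the 3' part gave the copies different values from these. In that part TDH1 had 374 and 321 CPM in spt6-7SA, 1344 and 1540 in ck2ts, and 207 and 229 in WT. TDH2 had 1256 and 1102 CPM in spt6-7SA, 1130 and 1281 in ck2ts, and 1121 and 1179 in WT. TDH3 had 1630 and 1371 CPM in spt6-7SA, 1436 and 1540 in ck2ts, and 1498 and 1576 in WT. TDH2 and TDH3 overlapped in all groups there, whereas the TDH1 groups stood apart from each other.

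From this part TDH1 rose 6.62-fold in ck2ts (log2 fold change 2.73, SE 0.19, adjusted p = 3.81e-05), where 51.4% of 6357 genes were called. It also rose in spt6-7SA, 1.60-fold (log2 fold change 0.67, SE 0.18, adjusted p = 0.0267), where 29.7% were called. TDH2 did not pass from the 3' part in ck2ts (log2 fold change 0.07, SE 0.18, adjusted p = 0.78), although it had passed from the whole gene. From the 5' part TDH1 rose 5.74-fold in ck2ts (adjusted p = 0.00136), where 39.9% of 6135 genes were called, while TDH2 had a log2 fold change of 0.49 (adjusted p = 0.103). In spt6-7SA the 5' part gave TDH1 a 1.32-fold difference that did not pass (adjusted p = 0.345). The TDH2 value in ck2ts thus differed between the parts counted. In its first 100 bases TDH2 shares 0 windows with either copy, and in its last 100 it shares 23 of 51 with TDH3. The 5' part held 0.89% of the TDH2 reads in ck2ts and 0.91% in WT on average. Over its whole length TDH2 shares 149 of 950 windows with TDH1 and 232 with TDH3. The part of shared reads in these values was not tested.

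The share of reads in the 3' part also moved differently in TDH1 and TDH2. It was 12.7% and 11.8% for TDH1 in spt6-7SA, 17.7% and 17.0% in ck2ts, and 11.3% and 9.94% in WT. For TDH2 it was 22.1% and 20.5% in spt6-7SA, 17.2% and 16.3% in ck2ts, and 24.4% and 21.8% in WT. A higher 3' share of TDH1 thus went with a lower 3' share of TDH2 in ck2ts, while the 3' share of TDH3 stayed between 10.9% and 11.6% in all 6 libraries.

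Among the 3 genes, TDH1 made up 13.0% and 13.5% of reads per kb in spt6-7SA, 27.9% and 29.2% in ck2ts, and 9.34% and 10.6% in WT. TDH3 made up 61.9% and 59.8% in spt6-7SA, 47.9% and 45.5% in ck2ts, and 67.2% and 64.6% in WT. By whole-gene reads TDH2 stayed between 23.5% and 26.7% in every library. By the 3' part alone the mean TDH1 share was 11.5% in spt6-7SA, 34.8% in ck2ts and 7.49% in WT. The mean TDH2 share from that part was 39.0% in spt6-7SA, 29.1% in ck2ts and 39.6% in WT, so it was not constant there. By the 5' part alone the means of TDH1, TDH2 and TDH3 were 3.62%, 3.22% and 93.15% in spt6-7SA. In ck2ts they were 13.2%, 3.91% and 82.9%, and in WT 2.43%, 2.95% and 94.6%. The size of the shares thus depended on the reads counted. By whole-gene reads TDH1 and TDH3 in both mutants were apart from WT without overlap. Their permutation p was the smallest that the design allows (exact, 0.3333), and TDH2 gave p = 0.6667 in ck2ts.

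**Figure D3:**
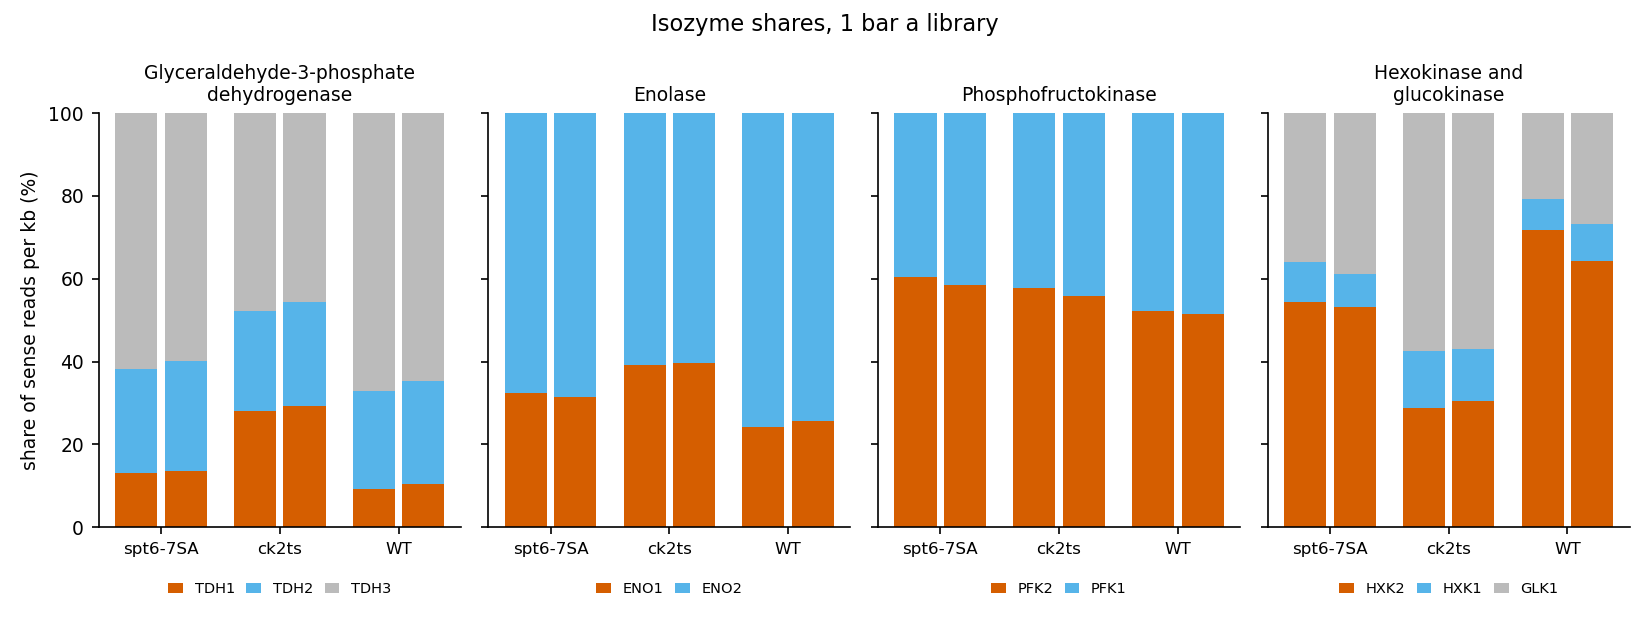
Share of each isozyme gene in the sense reads per kb of its enzyme, in percent, with 1 stacked bar per library, in the order spt6-7SA, ck2ts and WT in each panel. TDH1 reaches 27.9% and 29.2% in ck2ts, against 9.34% and 10.6% in WT, and HXK2 makes up 28.9% and 30.6% in ck2ts, against 71.8% and 64.4% in WT.

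PGK1 encodes phosphoglycerate kinase, which has no duplicate and makes the first ATP of the lower pathway (YCR012W, chrIII:137746-138996, plus strand). It had 4591 and 4665 CPM per kb in spt6-7SA, 5926 and 7519 in ck2ts, and 3794 and 4633 in WT. The ck2ts libraries lay above the others, and spt6-7SA overlapped WT. PGK1 rose in ck2ts by 0.67 on the log2 scale (SE 0.18, adjusted p = 0.0112), lost the call without the first WT library (adjusted p = 0.0844) and without the second ck2ts library, and had a log2 fold change of 0.14 in spt6-7SA (adjusted p = 0.547). In spt6-7SA against ck2ts it was lower by a log2 fold change of -0.54 (SE 0.18, adjusted p = 0.0351), a call that was lost in 3 of the 4 fits without a library (adjusted p up to 0.158) and with total counts in place of TMM (adjusted p = 0.0656).

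Enolase forms phosphoenolpyruvate, and of its copies ENO1 differed more from WT than ENO2. ENO1 (YGR254W, chrVII:1000927-1002240, plus strand) had 2183 and 2074 CPM per kb in spt6-7SA, 3562 and 4360 in ck2ts, and 1353 and 1777 in WT. ENO2 (YHR174W, chrVIII:451327-452640, plus strand) had 4540 and 4517 in spt6-7SA, 5520 and 6658 in ck2ts, and 4232 and 5127 in WT. ENO1 was above WT in all mutant libraries, whereas ENO2 in spt6-7SA lay between the WT libraries. In ck2ts both ENO2 libraries lay above both WT libraries, unlike those of TDH3.

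ENO1 rose in ck2ts by a log2 fold change of 1.34 (SE 0.18, adjusted p = 0.000441), and ENO2 had 0.38 (SE 0.17, adjusted p = 0.0775). From the 3' part, where the copies share no window in the last 100 bases, ENO1 rose 3.84-fold in ck2ts (adjusted p = 0.000192) and 1.85-fold in spt6-7SA (adjusted p = 0.0146). By whole-gene counts the log2 fold change of ENO1 in spt6-7SA was 0.44 (SE 0.18) and did not pass (adjusted p = 0.0721). From the 3' part ENO2 had log2 fold changes of -0.02 in spt6-7SA (adjusted p = 0.94) and 0.28 in ck2ts (adjusted p = 0.28). ENO1 made up 32.5% and 31.5% of enolase reads per kb in spt6-7SA, 39.2% and 39.6% in ck2ts, and 24.2% and 25.7% in WT. By the 3' part alone the means were 24.9% in spt6-7SA, 35.7% in ck2ts and 14.9% in WT. Both measures put the mutants above WT in every library (exact permutation p = 0.3333, the smallest possible, for whole-gene reads).

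CDC19 encodes the main pyruvate kinase, the last enzyme of the pathway (YAL038W, chrI:71786-73288, plus strand). It had 5035 and 5306 CPM per kb in spt6-7SA, 6405 and 7126 in ck2ts, and 5054 and 5250 in WT. It rose in ck2ts by 0.39 on the log2 scale (SE 0.14, adjusted p = 0.0413), a call that was lost in 3 of the 4 fits without a library. In spt6-7SA the log2 fold change was 0.01 (adjusted p = 0.979). PYK2, the second pyruvate kinase gene, rose 1.41-fold in spt6-7SA (adjusted p = 0.0246) and 1.65-fold in ck2ts (adjusted p = 0.0033). It averaged 38.6 CPM per kb in spt6-7SA, 45.2 in ck2ts and 27.4 in WT. CDC19 held over 99% of the reads of both genes in each library, with means of 99.3% in spt6-7SA and ck2ts and 99.5% in WT.

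Reads from the opposite strand of these genes gave no called rise against WT in either mutant. In ck2ts the antisense reads of 8 of the 10 genes fell against WT and 0 rose, while over all 6558 genes tested 62.2% were called, 48.2% as higher and 14% as lower. The median log2 fold change was -1.70 for the 10 genes and 0.62 over all genes. In spt6-7SA the antisense reads of 4 of the 10 fell and 0 rose, where 41.7% of all genes were called, 30.9% as higher and 10.8% as lower, with medians of -0.23 for the 10 genes and 0.28 over all. PFK2 and HXK2, whose sense reads rose in spt6-7SA, had antisense log2 fold changes of 0.17 and 1.00 there, which did not pass (adjusted p = 0.792 and 0.128). In spt6-7SA against ck2ts, 9 of the 10 were higher and 0 lower, where 47.7% of all genes were called, 15% as higher and 32.7% as lower. Without the second WT library 1 gene, PGK1, was called lower in spt6-7SA than in WT, and without the first spt6-7SA library 2 were. The number higher in spt6-7SA than in ck2ts was smaller in every fit that left out a library.

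The reads behind these folds were few. The TDH copies and the ENO copies share the same windows on this strand, so their antisense counts are not fully separate. The part of shared reads in them was not tested. TDH3 had 180 and 188 antisense reads in spt6-7SA, 49 and 36 in ck2ts, and 299 and 419 in WT. PGK1 had 182 and 198 in spt6-7SA, 50 and 31 in ck2ts, and 434 and 418 in WT. For both genes the 3 groups stood apart, with ck2ts lowest and WT highest.

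Scaled by sense library size, the antisense level of PGK1 fell 9.30-fold in ck2ts (log2 fold change -3.22, SE 0.23, adjusted p = 2.51e-08) and 2.25-fold in spt6-7SA (log2 fold change -1.17, SE 0.20, adjusted p = 0.000265). The antisense level of TDH3 fell 7.65-fold in ck2ts (adjusted p = 6.23e-07) and 2.01-fold in spt6-7SA (adjusted p = 0.00495). ENO2 fell 4.95-fold in ck2ts (adjusted p = 2.02e-06) and 1.66-fold in spt6-7SA (adjusted p = 0.0183), and TDH2 fell 3.36-fold in ck2ts (adjusted p = 0.000132) and 1.68-fold in spt6-7SA (adjusted p = 0.0406). In spt6-7SA the PGK1 call alone was kept in all 4 fits without a library, and TDH3 lost its call without the second WT library (adjusted p = 0.196).

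The remaining antisense falls in ck2ts were those of CDC19 (4.04-fold, adjusted p = 0.00288), ENO1 (3.15-fold, adjusted p = 4e-05), PFK2 (2.47-fold, adjusted p = 0.0461) and TDH1 (2.14-fold, adjusted p = 0.012). PFK1 and HXK2 did not pass in ck2ts, with antisense log2 fold changes of -0.30 (SE 0.41) and -0.40 (SE 0.59) from 16 to 49 and from 4 to 11 reads per library. TDH1 and ENO1, whose sense reads rose most, had fewer antisense reads in ck2ts, 29 and 32 against 63 and 84 in WT for TDH1 and 42 and 35 against 147 and 131 in WT for ENO1. TDH1 lost this call without the second WT library (adjusted p = 0.209) or the first ck2ts library, and CDC19 without either ck2ts library. PFK2 lost it in 3 of the 4 fits without a library (adjusted p up to 0.319) and with DESeq2 (adjusted p = 0.126). The first WT library had 94 antisense reads in CDC19 and the second 207.

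**Figure D4:**
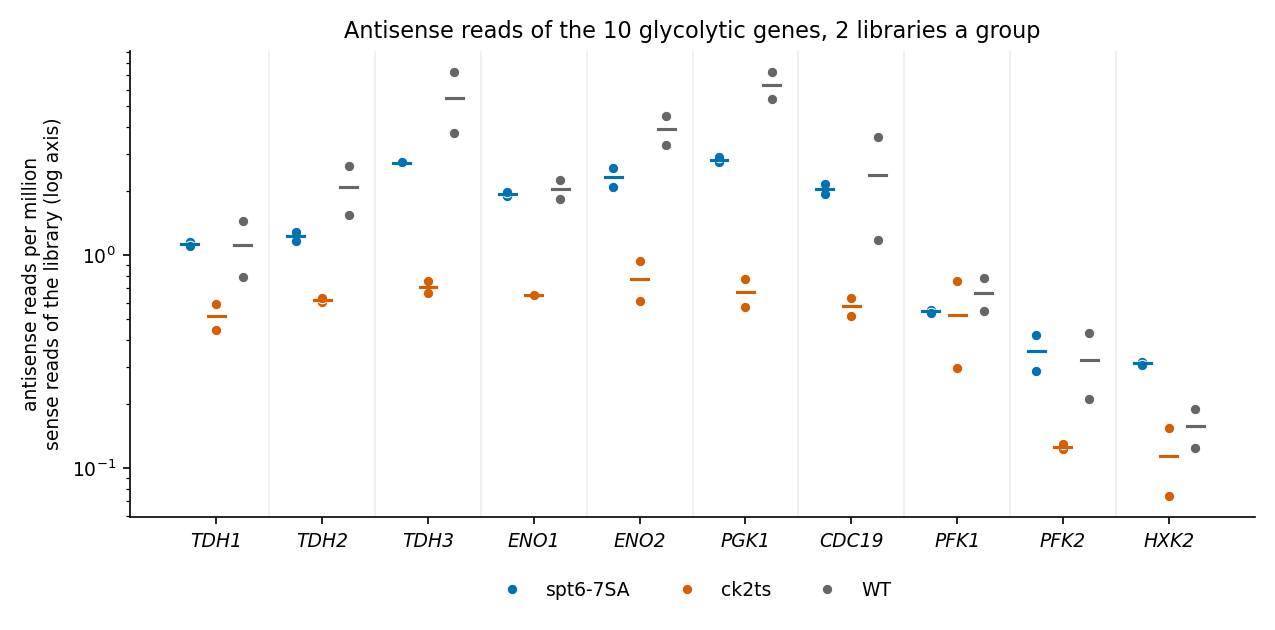
Antisense reads of each gene per 1000000 sense reads of its library on a log axis, with 1 point per library and a bar at the mean of the 2 libraries of spt6-7SA (blue), ck2ts (orange) and WT (grey). The ck2ts libraries are lowest for 8 of the 10 genes without overlap with the other groups, among them PGK1 at 0.77 and 0.57, against 5.43 and 7.24 in WT.

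In each gene the antisense strand made up a small part of the reads. In antisense reads per 1000000 sense reads of the same gene, the median over the 10 genes was 372 and 401 in spt6-7SA, 98.3 and 75.0 in ck2ts, and 383 and 573 in WT. Over 161 other abundant protein-coding genes that overlap no gene on the other strand, the median was 710 and 837 in spt6-7SA, 970 and 552 in ck2ts, and 417 and 904 in WT. Of those 161 genes, 28 were called higher and 56 lower in ck2ts, with a median log2 fold change of -0.32, and 26 higher and 19 lower in spt6-7SA, with a median of -0.11. Abundant genes as a group therefore did not follow the median of all genes in ck2ts either.

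A stranded protocol leaves some sense reads on the wrong strand, and abundant genes with few antisense reads are given here for comparison. Over 271 other genes with at least 20000 sense reads in each library, the 5th percentile of antisense reads per 1000000 sense reads was 182 and 235 in spt6-7SA, 114 and 78.7 in ck2ts, and 142 and 301 in WT. The lowest value of any of the 271 genes was 114 and 85.7 in spt6-7SA, 62.2 and 20.6 in ck2ts, and 54.4 and 216 in WT. In ck2ts the medians of the 10 genes lay below the 5th percentile and above the lowest value. The 5th percentile itself was also lowest in ck2ts. The part of wrongly marked sense reads in the antisense counts was not tested.

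PGK1 and CDC19 overlap open reading frames that the files list on the other strand, YCR013C over 595 bases and YAL037C-B over 963 bases, so part of their antisense reads are also the sense reads of those features. The other 8 genes overlap none. In TDH3 the antisense reads lay more in the 5' than in the 3' part of the gene, with 120 and 11 reads in spt6-7SA, 16 and 5 in ck2ts, and 196 and 43 in WT, summed over the libraries of a group. PFK1 showed the reverse, with 2 and 25 reads in spt6-7SA, 3 and 21 in ck2ts, and 2 and 34 in WT.

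Spt6 mutants are known for transcription that starts inside genes, which adds reads to the 3' part relative to the 5' part. Of the 10 genes, 7 were at least 1000 bases long and entered the test of that ratio, and 0 were called in either mutant, where 2.71% of 3354 genes were called in ck2ts and 0.775% in spt6-7SA. At an unadjusted p under 0.05 the number was also 0. The largest ratios among the 7 were those of ENO1, with a log2 difference of 0.52 (SE 0.37, adjusted p = 0.748) in spt6-7SA and 0.41 (SE 0.37, adjusted p = 0.642) in ck2ts. ENO1 shares all 51 windows of its first 100 bases with ENO2 and 0 of its last 100. The part of shared reads in its ratio was not tested. The TDH genes, at 999 bases, entered only without the minimum length, and there TDH2 had the lowest value in ck2ts, -0.58 (SE 0.22, adjusted p = 0.308).

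The rest of the pathway was read from lists. Of 14 other glycolysis genes, 9 rose and 0 fell in ck2ts, where 64.5% of all genes were called, 32.1% as higher. In spt6-7SA 9 rose and 2 fell, where 50.6% were called, 25.9% as higher. The number called in either direction in ck2ts was near the share over all genes, but all of these calls were higher. ERR1 and ERR2 were counted as separate genes among the 9 in both mutants. In ck2ts the genes with the smallest p were HXK1, GLK1, GPM2 (2.77-fold) and PFK26 (2.07-fold), a phosphoglycerate mutase homologue and a kinase that makes fructose-2,6-bisphosphate. In spt6-7SA they were the enolase-related genes ERR3 (4.61-fold), ERR2 (4.14-fold) and ERR1 (4.14-fold), and GLK1. ERR1 and ERR2 have the same sequence, with 1177 and 1177 sense reads in the first spt6-7SA library, so their values are uncertain, and in ck2ts they rose 2.75-fold each and ERR3 3.03-fold. PFK27, the other fructose-2,6-bisphosphate kinase gene, fell in spt6-7SA to 0.78 of WT (adjusted p = 0.0142) and had a log2 fold change of -0.10 in ck2ts (adjusted p = 0.345). The single-copy genes FBA1 (aldolase), TPI1 (triose phosphate isomerase) and PGI1 (phosphoglucose isomerase) did not pass in ck2ts, with log2 fold changes of 0.06, -0.27 and -0.07, and PGI1 rose 1.31-fold in spt6-7SA (adjusted p = 0.0411). GPM1, the main phosphoglycerate mutase gene, rose 1.52-fold in ck2ts (adjusted p = 0.00578) and had a log2 fold change of -0.06 in spt6-7SA (adjusted p = 0.731).

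Of 7 genes of gluconeogenesis and the glyoxylate cycle, which run carbon in the opposite direction, 5 rose and 0 fell in ck2ts, with a median log2 fold change of 1.34, and 3 rose and 1 fell in spt6-7SA, with a median of 0.22. Over all genes 64.5% were called in ck2ts and 50.6% in spt6-7SA, with medians of 0.02 and 0.01. In ck2ts MLS1 (malate synthase) rose 6.74-fold, FBP1 (fructose-1,6-bisphosphatase) 3.37-fold, PCK1 (phosphoenolpyruvate carboxykinase) 2.63-fold and PYC1 (pyruvate carboxylase) 2.53-fold. In spt6-7SA FBP1 rose 2.62-fold (adjusted p = 0.000979), PYC1 1.43-fold (adjusted p = 0.0136) and MLS1 1.39-fold (adjusted p = 0.0302), and MDH2 (malate dehydrogenase) fell to 0.82 of WT (adjusted p = 0.0349). Genes of this list thus rose beside TDH1, ENO1, GLK1 and HXK1, which were also higher in ck2ts. Mean levels in ck2ts and WT were 16.8 and 2.51 CPM for MLS1, 7.22 and 2.14 for FBP1 and 43.2 and 16.4 for PCK1. PYC1 had 1056 and 417 CPM, and TDH1 had 8337 and 2066. FBP1 had more antisense than sense reads in both groups, at 11.3 and 9.33 antisense CPM.

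Of 10 genes of alcoholic fermentation, 5 rose and 0 fell in ck2ts, and 3 rose and 1 fell in spt6-7SA. In either direction this was a smaller share than the 64.5% and 50.6% called over all genes in ck2ts and spt6-7SA. As higher, 32.1% of all genes were called in ck2ts and 25.9% in spt6-7SA. ALD4 (aldehyde dehydrogenase) rose 4.82-fold, ADH5 2.89-fold, ADH4 1.68-fold and ADH2 1.33-fold (alcohol dehydrogenases) in ck2ts, while the main genes of this route, PDC1 and ADH1, had log2 fold changes of -0.21 (adjusted p = 0.225) and 0.33 (adjusted p = 0.0776). The mean share of ADH2 reads in the 3' part was 2.62% in spt6-7SA, 1.30% in ck2ts and 0.34% in WT. For ADH1 it was 19.4% in WT. The fold of ADH2 is therefore uncertain, and the part of reads shared with other ADH genes in its count was not tested. In spt6-7SA PDC6 (pyruvate decarboxylase) rose 2.88-fold, ALD4 1.87-fold and ADH4 1.63-fold, and ALD6 fell to 0.59 of WT. In the glycerol branch of 4 genes, GPP1 and GPP2 (glycerol phosphatases) fell in both mutants, to 0.54 and 0.65 of WT in ck2ts and to 0.61 and 0.65 in spt6-7SA, and GPD1 (glycerol phosphate dehydrogenase) rose 2.48-fold in ck2ts.

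All 4 regulators of glycolytic genes on the list changed against WT in both mutants, where 50.6% of all genes were called in spt6-7SA and 64.5% in ck2ts. GCR1, an activator of these genes, rose 1.45-fold in spt6-7SA (adjusted p = 0.00242) and 2.43-fold in ck2ts (adjusted p = 2.37e-05). RAP1, which binds the same promoters, fell to 0.69 of WT in spt6-7SA (adjusted p = 0.0023) and to 0.44 of WT in ck2ts (adjusted p = 3e-05). The activator genes GCR2 and TYE7 fell to 0.74 and 0.72 of WT in spt6-7SA and to 0.78 and 0.79 in ck2ts. Of 6 regulators of glucose repression, 1 rose and 4 fell in ck2ts, and 1 rose and 2 fell in spt6-7SA, a number near the share of all genes called there. The repressor gene MIG1 fell to 0.81 of WT in spt6-7SA (adjusted p = 0.0397) and to 0.52 in ck2ts (adjusted p = 0.000159), MIG2 fell to 0.23 in ck2ts (adjusted p = 0.00114), and REG1 rose 1.48-fold in spt6-7SA and 1.52-fold in ck2ts. GLC7, the phosphatase gene whose product acts with Reg1, fell to 0.78 of WT in spt6-7SA (adjusted p = 0.0249) and to 0.81 in ck2ts, and SNF1, the kinase gene, fell to 0.80 in ck2ts (adjusted p = 0.0114).

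In spt6-7SA against ck2ts, 2 of the 14 other glycolysis genes were higher and 6 lower, among them HXK1 (0.36 of ck2ts), GLK1 (0.35), GPM2 (0.53) and GPM1 (0.63). Of the 7 gluconeogenesis genes 2 were higher and 4 lower, namely MLS1 (0.21), PCK1 (0.44), MDH2 (0.56) and PYC1 (0.57). Of the 10 fermentation genes 1 was higher, PDC6 (2.74-fold), and 5 were lower, among them ALD4 (0.39), ADH5 (0.48) and ALD6 (0.67). Of the regulators, GCR1 was lower (0.60) and RAP1 (1.56-fold), MIG1 (1.56-fold), MIG2 (2.41-fold) and SNF1 (1.21-fold) were higher, and in the glycerol branch GPD1 was lower (0.57). Over all genes 27.2% were called higher and 25.1% lower in this comparison.

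The genes with the pattern most like that of 3 of the members were found by the root-mean-square difference over the 6 libraries of log2 CPM centred on each gene's mean, among 5375 genes with a mean of at least 10 CPM. Nearest to TDH1 were UGP1 (difference 0.09), YMR196W (0.10), ADR1 (0.10), ICR1 (0.12) and HXT7 (0.13), where TDH1 itself spanned 2.31 log2 units. UGP1, which makes UDP-glucose, averaged 307 CPM in spt6-7SA, 863 in ck2ts and 213 in WT. HXT7, a high-affinity hexose transporter gene, averaged 296 in spt6-7SA, 938 in ck2ts and 230 in WT. Nearest to HXK2 were YGR111W, FMP27, COG3, RAD17 and YMR119W-A, at differences of 0.06 to 0.08 where HXK2 spanned 0.73. Nearest to TDH3, which spanned only 0.23, were YIP4, MBA1, RFA3, TOF2 and MRPL7, at 0.04 to 0.06.

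TDH1 and TDH3 encode the same enzyme but moved apart in ck2ts, so a stretch of both promoters is shown, from 450 to 201 bases before the start codon. Capitals mark AGGGG, the core of the stress response element, and CTTCC, a form of the core of Gcr1 sites, on either strand. The stretches lie at chrX:337821-338070 (plus strand) for TDH1 and chrVII:884011-884260 (minus strand) for TDH3, in R64:
TDH1: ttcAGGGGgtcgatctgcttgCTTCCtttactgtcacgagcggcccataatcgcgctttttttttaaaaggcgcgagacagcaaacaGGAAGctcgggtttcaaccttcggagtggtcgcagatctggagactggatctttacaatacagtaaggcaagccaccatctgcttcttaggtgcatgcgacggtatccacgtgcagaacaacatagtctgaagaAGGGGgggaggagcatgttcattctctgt
TDH3: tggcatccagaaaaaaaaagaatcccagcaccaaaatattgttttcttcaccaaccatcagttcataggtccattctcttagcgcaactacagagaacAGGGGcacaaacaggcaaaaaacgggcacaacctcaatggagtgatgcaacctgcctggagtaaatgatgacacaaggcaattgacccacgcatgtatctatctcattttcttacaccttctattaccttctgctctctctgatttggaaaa

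In 600 bases before the start codon, AGGGG occurred on either strand at 2 positions in TDH1 and at 3 in TDH3. Of the 10 genes, 5 held it (TDH1, TDH3, ENO1, PGK1 and CDC19), against 39.7% of 5988 nuclear protein-coding genes. CTTCC was present in 8 of the 10, all but TDH3 and HXK2, against 72.9% of all genes. Only these exact letters were searched, so their absence does not show that TDH3 and HXK2 lack Gcr1 sites. GAANNTTC, a pair of heat shock element units, was present in PGK1 and PFK2, against 22.8% of all genes. Both genes that rose most in ck2ts, TDH1 and ENO1, held AGGGG, and so did TDH3, which did not rise.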

How the data were processed

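Total RNA of 6 libraries was measured, 2 each of spt6-7SA, ck2ts and WT. Per the labels' protocols and the submitters' processing notes, the authors depleted ribosomal RNA, made stranded libraries and read 50 bases from one end. They used Trimmomatic, BWA, SAMtools, the R64 build and Ensembl exons, with versions and the handling of reads with several matches unstated. The deposited files hold raw counts of reads on each strand of each exon, for the whole exon and for a part at its 5' and 3' end.

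Counts of 7553 exons were summed to 7126 genes. Sense counts after filterByExpr with a minimum count of 10 (6776 genes) were tested in 1 fit over all 6 libraries with edgeR 4.0.16 (R 4.3.3): TMM scaling, quasi-likelihood with robust dispersion, and Benjamini-Hochberg adjustment over all genes tested at a threshold of 0.05. SE is the log2 fold change divided by the root of the F statistic. Antisense counts (6558 genes) were tested likewise with the sense library sizes and factors, and the ratio of 3' to 5' part as an interaction with a term per library, in genes of at least 1000 bases where both parts averaged 20 reads or more. Isozyme shares were compared by a two-sided exact permutation test with scipy 1.17.1. Sequences and windows of 50 bases were read from the R64 RefSeq genome, and gene names from its annotation. Python 3.11.15, pandas 2.3.3 and matplotlib 3.10.9 were used for tables and figures. The tests were also run on counts simulated from the WT levels and the estimated dispersions. Of 50 genes changed 1.5-fold, 48% were recovered for sense, 16% for antisense and 24% for the ratio of parts. Of 50 changed 2-fold, 92%, 52% and 74% were recovered.

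Sense totals of 56307173 to 83375420 reads leave sense counting error small beside the spread between libraries (chi-square per degree of freedom between replicates of 113 for spt6-7SA, 198 for ck2ts and 183 for WT). Counting error limits the antisense values. The 10 genes and the other lists (57 symbols, all found) were chosen with earlier results of these data known. All 10 genes are named; of other lists, the 4 called genes with the smallest p per comparison and the isozymes are named. FBA1, TPI1, PGI1, PDC1, ADH1 and, in ck2ts, GPM1 and GLC7 fall outside this rule and were chosen with their values known. The 61 alternatives set at the start covered DESeq2 1.42.0, scaling, filters, dispersion, leaving out each library and a replicate block. A further 8, with counts of the 3' or 5' part alone and without overlapping genes, were chosen after the data were seen. No other column of per-sample values was present.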

Additional observations from a re-analysis of the deposited data

How the results depend on the processing

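With 2 libraries a group, depth does not limit the sense values, but the antisense values of PFK1 and HXK2 rest on few reads. TDH1 and ENO1 kept their sense rise in ck2ts in all 4 fits that left out a library, with adjusted p of at most 0.000858 and 0.00435 by edgeR. Of the settings other than leaving out a library, 501 single-gene values kept direction and side of the threshold, 21 lost and 21 gained a call and 18 changed sign, and 174 counts and shares were close to those reported and 30 were not. The counts of the 3' or 5' part alone and the fits without overlapping genes were chosen after seeing the data. The cause was not tested for any change given here.

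With DESeq2 the number of genes higher in spt6-7SA than in WT was 4 and the number lower in spt6-7SA than in ck2ts was 6. Sense CDC19 in spt6-7SA had a log2 fold change of -0.0057 with DESeq2 and -0.0057 with its size factors. With total counts and no TMM, 4 genes were higher in spt6-7SA, and the log2 fold changes against WT were 0.044 for TDH3 and 0.0596 for ENO2. Against ck2ts they were 0.0534 for TDH3 and 0.0525 for HXK2. With the spt6-7SA and ck2ts libraries alone, PFK1 had -0.004. With antisense reads scaled by their own library sizes and TMM, antisense TDH1 had -0.2284 and antisense PFK2 -0.0953 in spt6-7SA against WT.

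With the replicate block, 8 genes were higher in ck2ts and 4 in spt6-7SA than in WT, and 6 were lower in spt6-7SA than in ck2ts. With the block the genes that gained a call were TDH1 (adjusted p = 0.00622) and ENO1 (0.00716) in spt6-7SA against WT, ENO2 (0.00924) and PFK2 (0.0216) in ck2ts against WT, and TDH2, ENO2 and CDC19 in spt6-7SA against ck2ts. On the antisense strand 8 were lower in ck2ts, 4 lower in spt6-7SA and 8 higher in spt6-7SA than in ck2ts, where HXK2 lost its call. Deviations from the group means of libraries with the same number correlated at 0.351 between spt6-7SA and WT, 0.482 between ck2ts and WT and 0.43 between spt6-7SA and ck2ts. With only 2 numbers and no label that says they mark a shared day, the pairing was not used.

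From the 3' part alone, 3 of the 10 genes were higher in ck2ts, and 1887 genes in all were called in spt6-7SA against WT and 2201 against ck2ts. PFK1 had -0.0608 in ck2ts and -0.0159 in spt6-7SA, CDC19 -0.138 in spt6-7SA, and TDH3 0.0122 in spt6-7SA against ck2ts. From the 5' part alone, 3 were higher in ck2ts, 0 higher in spt6-7SA and 1 lower in spt6-7SA than in ck2ts, of 2450, 1189 and 1199 genes called in all. PFK1 had -0.0446 in ck2ts and -0.0113 in spt6-7SA, and TDH2 -0.1091 and CDC19 -0.4689 in spt6-7SA. The test of the 3' against the 5' part called 13 genes in spt6-7SA and 52 in ck2ts at a mean of at least 100 reads. With no minimum length it called 15 in spt6-7SA and 49 in ck2ts, and CDC19 had 0.0134 in ck2ts.

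In percentage points against WT, the shares from the 3' part differed by 27.35 for TDH1 in ck2ts, 9.97 and 20.8 for ENO1 in spt6-7SA and ck2ts, 9.263 for PFK2 in spt6-7SA, and -8.913 and -29.41 for HXK2 in spt6-7SA and ck2ts. From the 5' part the differences were 1.199 and 10.74 for TDH1 and 8.629 and 16.56 for ENO1 in spt6-7SA and ck2ts, and 5.547 for PFK2 and -0.4495 for CDC19 in spt6-7SA. Whole-gene differences were 3.308 and 18.64 for TDH1, 6.993 and 14.42 for ENO1 and -14.35 and -38.33 for HXK2 in spt6-7SA and ck2ts, and 7.566 for PFK2 and -0.213 for CDC19 in spt6-7SA.

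With each library left out in turn, where a group of 1 library is assumed to vary like the others, sense values ranged as follows. In ck2ts against WT, 2 to 7 genes were higher, and log2 fold changes ran over -0.0944 to 0.1046 for PFK1 and -0.0674 to 0.0544 for TDH3. In spt6-7SA against WT, 0 to 3 were higher, of 2255 to 2784 genes called, with -0.0015 to 0.3018 for PGK1, -0.0222 to 0.0618 for CDC19, -0.0282 to 0.113 for PFK1, -0.1563 to 0.053 for TDH3 and -0.179 to 0.1128 for ENO2. In spt6-7SA against ck2ts, 2 to 6 were lower, with -0.0712 to 0.1278 for PFK1, -0.1536 to 0.0557 for TDH3 and -0.2403 to 0.1412 for HXK2.

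On the antisense strand, 1 to 5 genes were lower in spt6-7SA than in WT, of 1807 to 2388 genes called. The log2 fold changes there ran over -0.3618 to 0.5351 for TDH1, -0.2874 to 0.7464 for PFK2, -0.2224 to 0.0947 for ENO1, -0.8078 to 0.8132 for CDC19 and -0.5084 to 0.006 for PFK1. In spt6-7SA against ck2ts, 5 to 6 were higher, with -0.465 to 0.8812 for PFK1. In ck2ts against WT, antisense PFK1 ran over -1.145 to 0.2024. The test of the 3' against the 5' part called 5 to 11 genes in spt6-7SA, with -0.2389 to 0.5508 for ENO2, -0.0782 to 0.0943 for PFK2, -0.0171 to 0.2267 for HXK2, -0.3221 to 0.0071 for PFK1 and -0.0442 to 0.4551 for CDC19. In ck2ts it called 18 to 82, with -0.0283 to 0.223 for HXK2, -0.2397 to 0.1891 for CDC19, -0.7403 to 0.1595 for ENO2 and -0.0507 to 0.8605 for ENO1.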
